A study of Pan troglodytes with 38 samples.

Results

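Genes of the intercalated disc were examined by RNA-seq in 38 chimpanzee hearts. The members were chosen by gene symbol, as gap junction and desmosome genes of the disc, and 10 genes were listed. Of these, 9 could be matched to a row of the 31373 annotated genes (GJA5, GJC1, CDH2, DSP, PKP2, DSG2, DSC2, JUP and CTNNA3), and GJA1 was not analysed here. All 9 reached at least 6 CPM (gene counts scaled to the library total) in at least 1 animal, as did 13121 genes in all.

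The intercalated disc is the end-to-end contact between heart muscle cells. Its gap junctions are channels built of connexins, through which the electrical impulse passes from cell to cell. Its adherens junctions tie the actin filaments of neighbouring cells together through cadherins and catenins, and its desmosomes do the same for the desmin filaments through desmogleins and desmocollins outside the cell and plakoglobin, plakophilin and desmoplakin on the inner side. Inherited changes in the desmosome genes are a known cause of arrhythmogenic cardiomyopathy.

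All hearts were taken post mortem from captive-born chimpanzees (Pan troglodytes), and the labels put them in a single group. RNA was extracted in 2016 from 17 animals (10 females and 7 males, in 4 extraction batches) and in 2018 from 21 animals (12 females and 9 males, in 1 batch), by the sample table of the study. Some of the libraries had been published earlier, and the animals noted as carrying hepatitis viruses all belong to 2018. The part of either in the differences between the years was not tested. Age was known for 34 animals and ran from 10 to 57 years. The tissue came from 5 centres, 1 of which (Yerkes) gave 21 hearts. The chamber of the heart is not given in the labels, and some of the animals are first-degree relatives, so the hearts are not fully independent samples.

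The total on orthologous exons was between 14408012 and 81603350 reads per animal (median 41226039), and levels are given as CPM of this total. The 13 mitochondrial genes took between 17.2% and 60.1% of the gene counts. All 12 cardiomyocyte markers were detected in every heart, but 3 hearts stood apart. In 549 the summed level of 9 atrial markers was the highest of all (47499.7 CPM, against a median of 549.8) and that of 6 ventricular markers the lowest (554 CPM, against 23855). In Little_R and 537 the summed cardiomyocyte markers were the lowest (17174 and 31240.3 CPM, against a median of 117752), and the fibroblast markers were the highest (10517 and 9639 CPM, against 1889.8). Some of the results that rest on these hearts are given with and without them, where such values were computed.

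GJA5 and GJC1, the connexins that could be matched, were low in the gene counts and did not follow the other disc genes there over the 38 hearts. GJA1, the other connexin listed, is not covered by this. For GJA5 the orthologous exon counts, described further on, were 3.73 times the gene counts at the median. GJA5 (ENSPTRG00000043079) encodes connexin 40, the connexin of atrial muscle, of the conduction system and of arterial endothelium. Its level was 1.33 CPM in the lowest heart (4X0339), 6.07 CPM at the median and 28.6 CPM in the highest (549). Little_R came second with 21.4 CPM, and the mean was 7.93 ± 5.82 CPM (SD, n = 38). GJA5 was thus high in the heart with the most atrial marker RNA and also in the heart with the least cardiomyocyte marker RNA. GJC1 (ENSPTRG00000046451) encodes connexin 45, which is found in the nodes and the conduction system. It ran from 0.790 CPM (4X0339) over a median of 2.66 CPM to 6.32 CPM (529), with a mean of 2.79 ± 1.12 CPM (SD, n = 38), and only 1 heart reached 6 CPM. Its counts were between 19 and 283 reads per library, so single hearts are known only coarsely. GJC1 was neither high nor low in the 3 hearts that stood apart, at 2.61 CPM in 549, 2.01 CPM in Little_R and 2.85 CPM in 537.

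The desmosomal cadherins covered a wide range. DSG2 (ENSPTRG00000009948) encodes desmoglein 2, the desmoglein of heart muscle. It ran from 4.93 CPM in Little_R over a median of 72.2 CPM to 126 CPM in 503, with a mean of 70.5 ± 28.8 CPM (SD, n = 38). DSC2 (ENSPTRG00000009941) encodes its partner desmocollin 2. It ran from 7.29 CPM in Little_R over a median of 99.7 CPM to 159 CPM in 88A020, with a mean of 95.5 ± 33.6 CPM (SD, n = 38). Both were lowest in Little_R and next lowest in 537, at 10.3 and 30.7 CPM. In 549 they differed, since DSG2 was the second highest of all hearts there (114 CPM) while DSC2 stood 30th (69.4 CPM).

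Of the plaque genes, DSP and PKP2 spanned a like range and JUP did not. DSP (ENSPTRG00000017702) encodes desmoplakin, which binds desmin. It ran from 56.9 CPM in Little_R over a median of 679 CPM to 1154 CPM in 338, with a mean of 664 ± 264 CPM (SD, n = 38). PKP2 (ENSPTRG00000004820) encodes plakophilin 2, which clusters the cadherins and binds desmoplakin. It ran from 34.4 CPM in Little_R over a median of 498 CPM to 845 CPM in 4x0430, with a mean of 469 ± 191 CPM (SD, n = 38). JUP (ENSPTRG00000009178) encodes plakoglobin, which sits in both desmosomes and adherens junctions. It ran from 179 CPM in 554_2 over a median of 298 CPM to 806 CPM in 338, with a mean of 321 ± 117 CPM (SD, n = 38). The median of JUP was 1.66-fold above its lowest heart, against 11.9-fold for DSP and 14.5-fold for PKP2. Little_R and 537 had 218 and 227 CPM of JUP, and stood 36th and 34th among the 38 hearts.

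The adherens junction genes behaved like the desmosomal cadherins in this respect. CDH2 (ENSPTRG00000009939) encodes N-cadherin, the classical cadherin of heart muscle. It ran from 33.5 CPM in Little_R over a median of 571 CPM to 918 CPM in 4X0095, with a mean of 533 ± 209 CPM (SD, n = 38). CTNNA3 (ENSPTRG00000002544) encodes alpha-T-catenin, which is largely restricted to heart and testis and binds plakophilin 2. It ran from 1.64 CPM in 537 over a median of 23 CPM to 47.9 CPM in 4x0519, with a mean of 22.5 ± 11.7 CPM (SD, n = 38). In the gene counts its coefficient of variation (52.2%) was above that of the other muscle genes of the disc (35.2% to 40.9%).

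**Figure D1:**
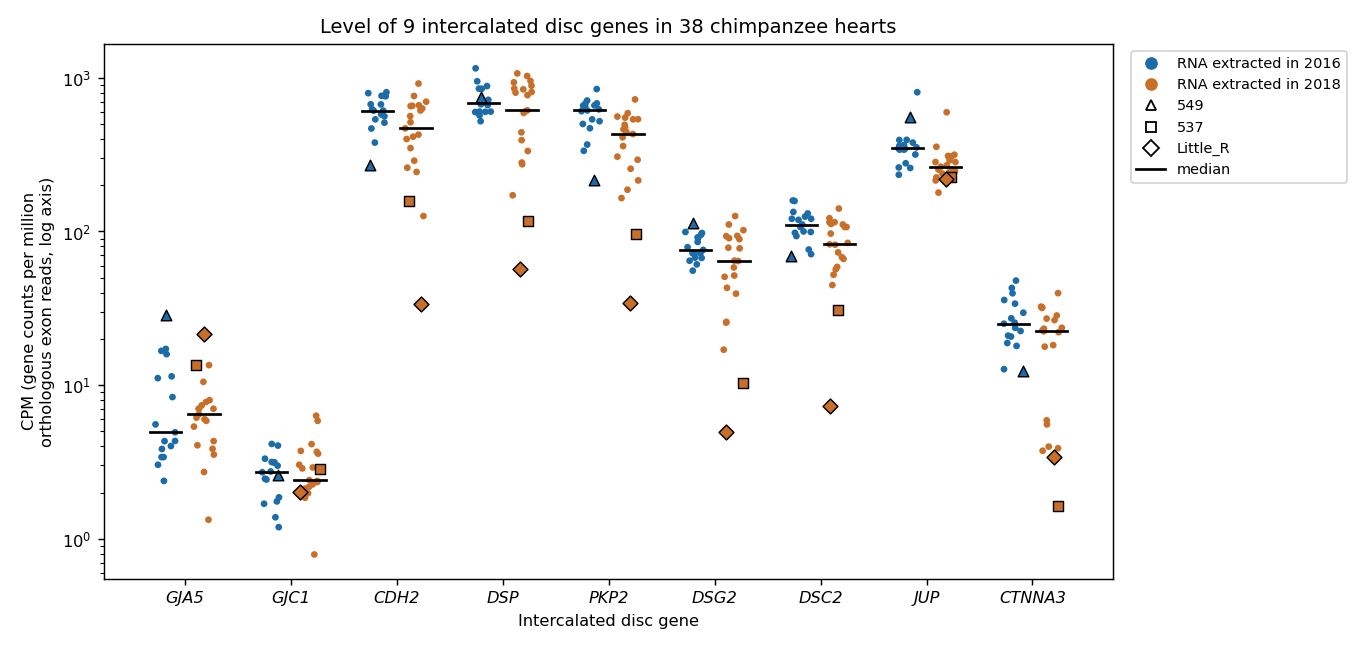
Level of the 9 genes (CPM, log axis) in each of the 38 hearts, by extraction year, with the medians as bars and 3 hearts marked by shape. Little_R and 537 are among the 3 lowest hearts for CDH2, DSP, PKP2, DSG2, DSC2 and CTNNA3, for JUP they lie near the other low hearts, and 549 is the highest heart for GJA5.

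The hearts with the least cardiomyocyte marker RNA were low in the disc genes to unequal extents. Relative to the median of the other 37 hearts, Little_R had 0.0579-fold the CDH2, 0.0681-fold the DSG2, 0.0688-fold the PKP2, 0.0728-fold the DSC2, 0.0831-fold the DSP and 0.146-fold the CTNNA3, but 0.714-fold the JUP. In 537 the same ratios lay between 0.0702 (CTNNA3) and 0.307 (DSC2) for these 6 genes, with 0.741 for JUP. Another heart, 4X0354, was low as well, at 0.218-fold for CDH2, 0.236-fold for DSG2 and 0.251-fold for DSP. In tissue of mixed cells, fewer muscle cells and less RNA per muscle cell cannot be told apart. In 549 the genes split another way, as CDH2, PKP2 and CTNNA3 were at 0.468-fold, 0.432-fold and 0.527-fold of the median of the others, DSP was at 1.12-fold, and DSG2 and JUP were at 1.58-fold and 1.91-fold. DSC1, a desmocollin outside the 9 members, had its highest level in 549 (119 CPM, against a median of 5.23 CPM over the 38 hearts). A single heart of this kind was present, so these differences have no replicate and no test.

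Which disc genes varied together was asked by correlating every member with every other over the animals. Each of the 36 pairs was read from a run of the member against all 13121 expressed genes on the log2(CPM + 0.5) scale, and a pair was called when the adjusted p of Pearson's r and of Spearman's rho were both under 0.05 for both genes (2-sided permutation test, 100000 permutations, Benjamini-Hochberg over all genes). By this rule 15 of 36 pairs were called, against 23.8% of all member by gene tests. The 15 were all the pairs among CDH2, DSP, PKP2, DSG2, DSC2 and CTNNA3, with r between 0.69 and 0.96 and rho between 0.54 and 0.80. The closest pair was DSP and DSG2, with r = 0.96 and rho = 0.80 (adjusted permutation p = 8.18e-05 and 5.75e-04), and CDH2 and CTNNA3 came next by rho with 0.74. Each of the 15 relations was positive without the 2 hearts farthest from the median of the first gene, with r between 0.61 and 0.91.

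JUP had rho between 0.24 and 0.57 with the other 6, and none of these pairs was called with the orthologous exon total as library size, although all 6 were with TMM scaled CPM and with the total of the gene counts. Its closest relation was with DSC2, where r was 0.45 (adjusted permutation p = 0.171) and rho was 0.57 (adjusted permutation p = 0.0249). With DSP it had r = 0.45 and rho = 0.47 (adjusted permutation p = 0.149 and 0.0822). GJA5 and GJC1 had rho between -0.22 and 0.24 with the rest and with each other, and none of these 15 pairs was called.

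The relations were not alike in the 2 extraction years. Among the 6 genes, r ran from 0.66 to 0.98 in the 21 hearts of 2018 (median 0.89) and from -0.16 to 0.72 in the 17 hearts of 2016 (median 0.33), where 13 of 15 were above 0. Without 537 and Little_R, the hearts of 2018 still gave r between 0.58 and 0.95 (median 0.81). DSP and DSG2 had r = 0.51 in 2016 and 0.98 in 2018, and PKP2 and CTNNA3 had r = 0.72 and 0.82. CDH2 and DSG2 had r = -0.16 in 2016 (rho = 0.01) and 0.92 in 2018. Among the hearts of 2016, 549 had the lowest CDH2 (271 CPM) and the highest DSG2 (114 CPM). The values of 2016 were not computed without 549. Over both years, leaving out 549 moved rho from 0.57 to 0.65 for CDH2 and DSG2. For CDH2 and PKP2 it moved rho from 0.55 to 0.52. The 15 pairs with GJA5 or GJC1 had rho from -0.48 to 0.60 in 2016, the highest being GJC1 with PKP2. In 2018 the rho of these pairs ran from -0.44 to 0.10. The hearts of 2016 covered a narrower range, with DSP between 522 and 1154 CPM against 56.9 to 1069 CPM in 2018, and the difference between the years was not tested.

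**Figure D2:**
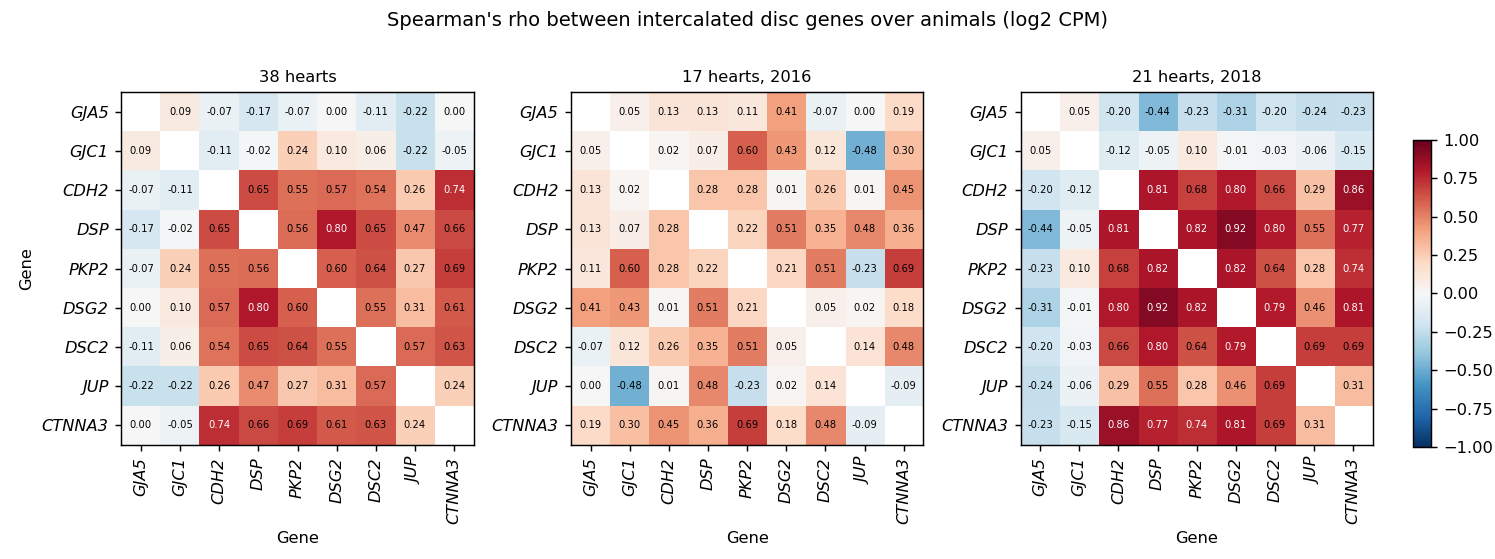
Spearman's rho of log2 CPM between the 9 genes over all 38 hearts, over the 17 hearts of 2016 and over the 21 hearts of 2018 (colour scale from -1 to 1). The block from CDH2 to DSC2 together with CTNNA3 is positive in all 3 panels and strongest in 2018, while the rows of GJA5 and GJC1 are pale or mixed.

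The ratio of 2 genes within a heart does not depend on the library size. The count of DSP was between 6.23 and 13.3 times that of DSG2 (median 9.91), a range of 2.13-fold over 38 hearts, in which DSP itself spanned 20.3-fold. The SD of this log2 ratio was 0.27, the smallest of the 21 ratios among the 7 genes other than the connexins. The ratio of CDH2 to DSP had an SD of 0.41 and that of DSP to DSC2 of 0.42. The ratios with JUP had SDs from 0.71 (DSC2) to 1.14 (CTNNA3), and from 0.46 to 1.0 without 537 and Little_R. Those of CTNNA3 with the genes other than JUP were wide too, with SDs from 0.66 to 0.86, and from 0.60 to 0.79 without these hearts. The ratio of DSP to JUP was 2.18 at the median, 0.261 in Little_R and 0.518 in 537. In 549 the ratio of DSP to PKP2 was the highest of all hearts (3.49, median 1.39), and those of CDH2 to DSP (0.359, median 0.783) and of PKP2 to DSG2 (1.90, median 6.93) were the lowest.

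**Figure D3:**
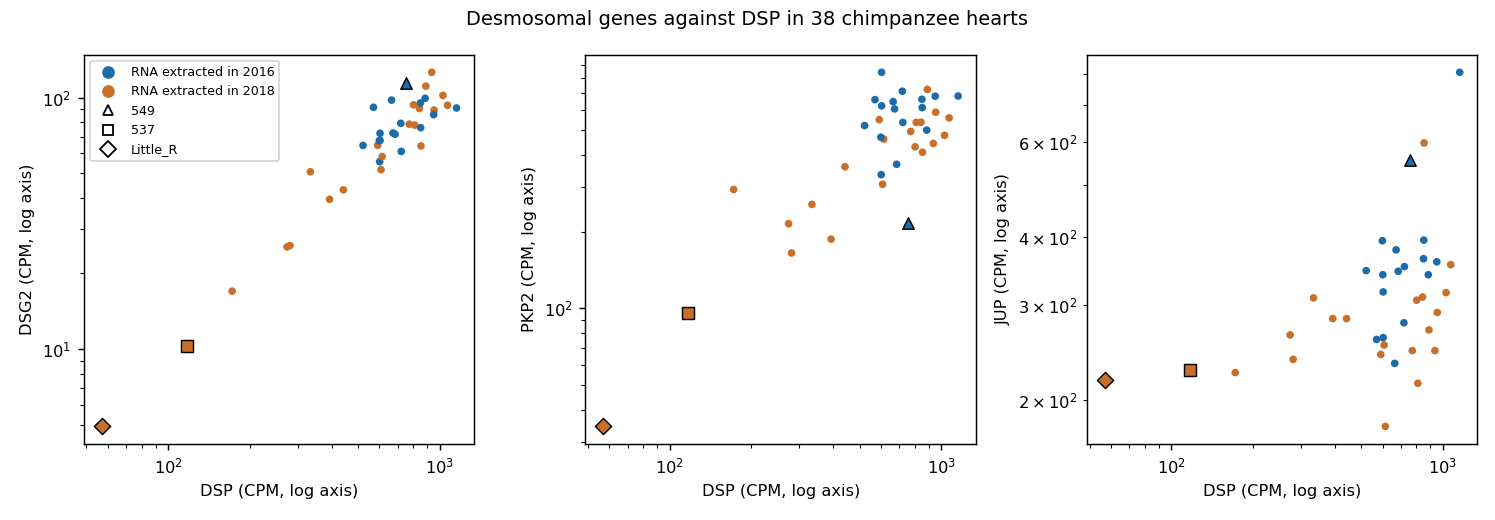
DSG2, PKP2 and JUP against DSP (CPM, log axes) in the 38 hearts, coloured by extraction year and with 3 hearts marked. DSG2 lies along a line with DSP from Little_R (4.93 and 56.9 CPM) upward, 549 lies below hearts of a like DSP level for PKP2, and JUP stays between 179 and 806 CPM over the whole range of DSP.

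The 6 genes were also correlated with much of the transcriptome. Between 25.5% (DSC2) and 46.0% (CTNNA3) of the 13120 other genes were called with each of them, and 0.694% with JUP. For GJA5 and GJC1 no gene was called by this permutation test, although 1318 and 1005 genes had an unadjusted p of rho under 0.05. The permutation test could not give a p below 1.00e-05. PKHD1L1 with GJA5 (rho = 0.72) was at this limit, and its adjusted permutation p was still 0.131. The lack of calls therefore does not show that these connexins have no related genes. Of 54 relations of the members with 5 summed marker lists and the mitochondrial share, CDH2, DSP, PKP2, DSG2 and CTNNA3 had rho between 0.39 and 0.53 with the summed cardiomyocyte markers, and DSC2 had 0.09 (r = 0.67, and 0.08 without the 2 hearts farthest from the median). Of the 5, PKP2 did not pass by rho (adjusted permutation p = 0.0548). In 2016 their rho was between -0.03 (CDH2) and 0.36 (CTNNA3), and in 2018 between 0.60 and 0.63. CTNNA3 had rho = -0.58 with the summed endothelial markers (adjusted permutation p = 0.00945 over the 54 relations) and -0.44 with the mitochondrial share. The relations were not its own, since DSP, CDH2 and DSG2 had rho from -0.43 to -0.53 with the endothelial markers and CDH2, PKP2, DSC2 and DSG2 had rho from -0.42 to -0.53 with the mitochondrial share. In 2018 the r of CTNNA3 with the mitochondrial share was -0.92, and in 2016 it was 0.15. Over both years r was -0.80, and -0.71 without 537 and 558, the 2 hearts farthest from the median share. GJA5 had rho = 0.37 with the endothelial and 0.36 with the fibroblast markers (adjusted permutation p = 0.0689 and 0.0731). The part of these cell types and of RNA quality in the relations between members was not tested.

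The genes most like each member in level over the 38 hearts were taken as the 5 with a symbol and the highest rho. For DSP these were ASB15 (0.88), PDZRN3 (0.86), CLCN4 (0.85), PRICKLE1 (0.84) and TRMT2B (0.83). For DSG2 they were KBTBD6 (0.80), DSP (0.80), CLCN4 (0.79), UBR3 (0.79) and FYCO1 (0.78), the only case in which another member was among the 5. For PKP2 they were TLCD4, TXLNB, ACBD5, NUBPL and FYCO1 (0.81 to 0.82), and for DSC2 AGGF1, SECISBP2L, FBXW11, BTBD1 and EIF4E3 (0.80 to 0.84). For CDH2 they included INPP5A, SYNPO2, CFAP61 and PSMD1 (0.79 to 0.82). CTNNA3 had the highest values, with PATJ (0.90), NLGN1 (0.89), DMD (0.87), CCDC141 (0.84) and TSPYL1 (0.83). JUP came with other genes, namely MINDY1 (0.75), CAPN1 (0.73), CITED2 (0.73), ATG9A (0.72) and RAB11B (0.71). The connexins had looser companions, with PKHD1L1 (0.72), LRRCC1 (0.61), TMEM100 (0.60), ENTPD1 (0.60) and FOXC1 (0.59) for GJA5 and ADD3 (0.67), ITGA6 (0.65), SUN1 (0.65), KITLG (0.62) and ARHGAP29 (0.60) for GJC1.

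Whether the members differed with the extraction year was tested by edgeR's quasi-likelihood test with sex in the model. The only member called was JUP, 1 of 9, against 16.1% of the 15790 genes tested, so the share of members called was near that of all genes. JUP was at 373 ± 133 CPM in 2016 (SD, n = 17) and at 279.7 ± 83.7 CPM in 2018 (SD, n = 21). Its log2 difference of 2018 against 2016 was -0.45 (SE 0.13, edgeR adjusted p = 0.0169), and the ranges of 234 to 806 CPM and 179 to 597 CPM overlapped. The call rested on single hearts, since without 549 the adjusted p was 0.0523 (log2 difference -0.37) and without 338, the heart with the highest JUP, it was 0.0576 (log2 difference -0.34). It was also lost in the Yerkes hearts alone (-0.54, adjusted p = 0.170) and with the mitochondrial share in the model (-0.38, adjusted p = 0.183).

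PKP2 had the largest log2 difference of the 9 members, -0.59, but did not pass the test (SE 0.25, edgeR adjusted p = 0.0985), with levels from 569.7 ± 156 CPM in 2016 to 387 ± 180.1 CPM in 2018. The others had log2 differences between -0.52 (CTNNA3) and 0.06 (GJC1) with edgeR adjusted p from 0.144 to 0.839. The median over the 9 members was -0.41 and over all genes -0.01. Marker lists differed between the years as well. Of 9 atrial markers 5 were lower in 2018, of 8 leukocyte markers 3 were lower (CD14, CD163 and C1QA) and of 7 adipocyte markers tested 3 were higher, while 0 of 12 cardiomyocyte markers were called (their sum was between 69198 and 160243 CPM in 2016 and between 17174 and 170356 CPM in 2018). Without 549 the atrial count was 2 of 9 (BMP10 and SLN) and that of leukocyte markers was again 3 of 8, and without 4X0267 the adipocyte count was 1 of 7. The atrial sum was between 195 and 47499.7 CPM in 2016 and between 172 and 16539 CPM in 2018, with BMP10 at 0 in 15 hearts. The leukocyte sum was between 69.5 and 788 CPM in 2016, its highest value being in 338, and between 33.3 and 379 CPM in 2018. Their part in the difference of JUP was not tested.

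Sex, RNA integrity and age gave no member past the threshold. For males against females, 0 of 9 members were called by edgeR, against 0.215% of all genes, and 0 had an unadjusted p under 0.05. The log2 differences ran from -0.26 (DSP and CTNNA3) to 0.37 (GJA5, with a 95% interval of -0.21 to 0.96), and GJA5 was at 0.64 in the orthologous exon counts (SE 0.27, edgeR adjusted p = 0.479). For RIN, a score of how intact the RNA was, 0 of 9 members were called, against 0% of all genes by edgeR and by limma-voom (2276 genes had an unadjusted edgeR p under 0.05), while DESeq2 called 168 genes, none of them a member. GJA5 alone had an unadjusted p under 0.05, with a log2 slope of 0.22 per RIN unit (SE 0.09, edgeR adjusted p = 0.281), and in the orthologous exon counts described further on its slope was 0.10 (SE 0.08, edgeR adjusted p = 0.671). For age, 0 of 9 members were called, against 0% of all genes by edgeR and limma-voom (1209 genes had an unadjusted edgeR p under 0.05) and 5 genes by DESeq2, and none of the members had an unadjusted p under 0.05. The slopes per 10 years were between -0.05 (GJA5) and 0.12 (CDH2 and CTNNA3), with the 95% interval of CDH2 from -0.04 to 0.28.

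**Figure D4:**
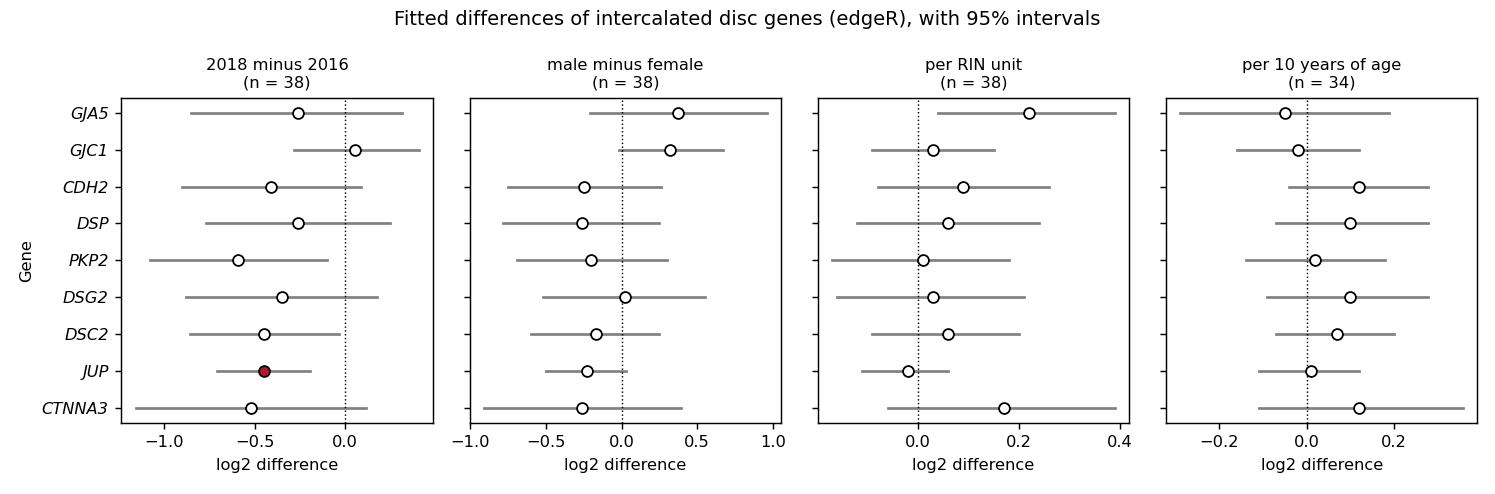
Fitted log2 difference of the 9 genes with extraction year, sex, RIN and age (points, with 95% intervals as bars), where a filled point passed the adjusted threshold. Only JUP by extraction year is filled (-0.45), and the axes of the 4 panels differ in scale.

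Variability between animals was measured as dispersion, the residual of the natural log of a gene's negative binomial overdispersion from its trend on mean expression over 13121 genes. A value above 0 means more variable than genes of a like mean. Of the 9 members only GJC1 had a dispersion below 0 (-1.23, SE 0.32 from leaving out each animal), against 55.1% of all genes. Genes of so low a mean entered the trend only if some heart reached 6 CPM, and GJC1 did so in 1 heart. The trend there is thus not that of all genes of a like mean. With genes of 1 CPM or more in at least 19 animals instead, the dispersion of GJC1 was -0.69. By the gene counts, CTNNA3 was the most variable of the members (1.24, SE 0.17, at percentile 90.4 of all genes). DSG2 (1.10, SE 0.26), PKP2 (0.99, SE 0.21), CDH2 (0.94, SE 0.25), DSP (0.93, SE 0.19), DSC2 (0.71, SE 0.41) and GJA5 (0.65, SE 0.26) followed, and neighbours in this order differed by less than the larger of their SEs. JUP lay on the trend (0.01, SE 0.47).

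Dispersion was also estimated within each extraction year. In the hearts of 2016 alone DSP and DSG2 were below 0 (-0.21 and -0.36), and in those of 2018 alone they were at 1.21 and 1.41. Without 537 and Little_R the 6 genes had values between 0.16 (DSC2) and 1.13 (CTNNA3). GJA5 went the other way, with 1.48 in 2016 and 0.25 in 2018, and JUP had 0.57 and -0.57. The highest hearts for GJA5 (549) and JUP (338) are both of 2016. Over both years, GJA5 was at 0.45 without 549 and JUP at -0.38 without 338. The values of 2016 alone were not computed without these hearts. The differences in dispersion between the years were not tested. Beside the members, CTNNB1 (-0.98) and CTNNA1 (-0.55), catenins found in most cell types, lay below the trend, as did DES (-1.27), the desmin that desmosomes anchor, and TJP1 (-1.01), a scaffold that binds connexins. NRAP (1.18) and XIRP2 (2.24), which bind actin at the disc, lay above it. Of 21 disc scaffold and filament anchor genes 2 were below 0, of 9 other catenins and classical cadherins 3, of 7 other desmosomal proteins 3, and of 5 other connexins and pannexins 0. Few values below 0 were not particular to the members. Of 12 cardiomyocyte markers 2 were below 0, and 0 of 6 ventricular, 0 of 9 atrial, 0 of 8 fibroblast and 0 of 7 endothelial markers were.

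The other genes of the same structures were read from lists of partners. Of 21 further connexins and pannexins 19 could be matched and 5 reached 6 CPM in a heart, and PANX1 had the highest median (6.33 CPM). The median of GJA3 was 2.08 CPM. By extraction year GJD4 and PANX3 were higher in 2018, with log2 differences of 2.20 and 2.08 (edgeR adjusted p = 0.00176 and 8.96e-04), and of the 9 tested none was lower. Without 537 and Little_R, 1 of 8 tested was higher, namely GJD4 (log2 difference 1.71, edgeR adjusted p = 0.00764), and PANX3 was too low to be tested.

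Among the other desmosomal proteins, PKP4 (median 149 CPM), PERP (102 CPM) and DSC1 (5.23 CPM) had the highest levels. PERP, a desmosomal membrane protein, was positively related to all 6 muscle genes (rho from 0.47 with CDH2 to 0.76 with DSC2), and DSC1 to DSG2 (rho = 0.64) and PKP2 (rho = 0.40). EVPL and PKP1, which belong mainly to epithelia, were higher in 2018 and DSC1 was lower, with log2 differences of 1.0, 1.92 and -1.21 (edgeR adjusted p = 6.22e-04, 0.0231 and 0.0432). The call of DSC1 rested on a few hearts, as its log2 difference was -0.61 without 549 (edgeR adjusted p = 0.207), -1.07 without 537 and Little_R (edgeR adjusted p = 0.0688) and -1.13 without 4X0354 (edgeR adjusted p = 0.0629). EVPL and PKP1 were low, with medians of 1.65 and 0.179 CPM. EVPL had its highest level in 537 (7.28 CPM), and PKP1 was at 0 in 3 hearts. PKP1 had its highest level in 4X0354 and was too low to be tested without it. Of the other cadherins in the gene cluster of DSG2 and DSC2, DSG3 and DSG4 were at 0 in 36 and 34 of the 38 hearts, DSC3 was at 0 in 3, and DSG1 was detected in all of them (median 1.24 CPM).

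Of the other catenins and cadherins, CTNNA1 (median 430.5 CPM), CTNNB1 (313 CPM) and CDH13 (186 CPM) had the highest levels. CTNNA1 and CDH13 were positively related to all 6 muscle genes, with rho from 0.38 to 0.76 and from 0.59 to 0.80. Of the 9 genes tested by correlation, 2 or 3 were called positive with each of the 6, and between 0 and 3 negative. CTNNA1 fell by 0.38 on the log2 scale in 2018 (SE 0.13, edgeR adjusted p = 0.0357), the only one of 10 tested to pass, but the adjusted p was 0.0663 without 537 and Little_R, 0.0605 without 338 and 0.0560 without 4X0267 (edgeR). Of the disc scaffolds and filament anchors, 21 of 22 could be matched, led by DES (median 20292 CPM), ACTN2 (3634 CPM) and FLNC (2402 CPM). The scaffold ANK3, the actin binder NRAP, LMO7 and TMEM65, which is needed for connexin placement, were positively related to each of the 6 muscle genes, with rho from 0.39 to 0.73. VASP and AFDN were negatively related to 5 of the 6 (rho from -0.41 to -0.70). AFDN rose by 0.47 in 2018 (SE 0.15, edgeR adjusted p = 0.0275), the only one of the 21 to pass, and the adjusted p was 0.0666 without 537 and Little_R (edgeR). By sex, RIN and age none of the genes of these 4 lists passed the threshold in edgeR.

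Only GJA5, PKP2 and CTNNA3 could be found by identifier in the second table, which holds the reads on exons orthologous between human and chimpanzee, and only these could be compared per length. In Pan_tro_3.0, the 5 exons of GJA5 lie on chromosome 1 between 110751895 and 110769037 (plus strand) and hold 2622 bases. The 14 exons of PKP2 lie on chromosome 12 between 57850200 and 57957718 (6857 bases), and the 20 exons of CTNNA3 lie on chromosome 10 between 66827318 and 68678711 (minus strand, 11034 bases). In RPKM, the CPM per kilobase of exon, PKP2 had 70.5 ± 27.8 (SD, n = 38), CTNNA3 13.5 ± 6.22 and GJA5 11.9 ± 9.27. PKP2 thus stood well above both, and CTNNA3 and GJA5 differed by less than their SD. The order was turned in 3 hearts, as GJA5 was above PKP2 in Little_R (33.4 and 5.28 RPKM), in 537 (34.8 and 16.3 RPKM) and, by a small margin, in 549 (32.6 and 32.1 RPKM).

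The choice of table mattered for GJA5 and for CTNNA3. For PKP2 the exon count was 1.03 times the gene count at the median, and the hearts kept nearly the same order (rho = 0.997). For CTNNA3 it was 6.84 times the gene count at the median and between 5.12 and 15.5 times in single hearts (rho = 0.939). The lowest heart for CTNNA3 was 537 in the gene counts (1.64 CPM) but Little_R on the orthologous exons (1.58 RPKM). Dispersion and correlations with other genes or with the mitochondrial share were computed on the gene counts only. For GJA5 the exon count was 3.73 times the gene count at the median but between 2.52 and 17.3 times in single hearts (rho = 0.890). The extreme was 4X0354, with 119 reads in the gene counts and 2062 on the orthologous exons, so that it stood 20th for GJA5 by the first table and first by the second (39.7 RPKM). There 4X0354, 537, Little_R and 549 had between 32.6 and 39.7 RPKM, and the next heart had 20.4 RPKM. Both tables thus put 549, Little_R and 537 among the 6 highest for GJA5, but the place of 549 as the highest held only in the gene counts. The difference between the years was -0.26 in the gene counts and 0.27 in the exon counts for GJA5 (edgeR adjusted p = 0.574 and 0.507), whereas for PKP2 it was -0.59 and -0.60.

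**Figure D5:**
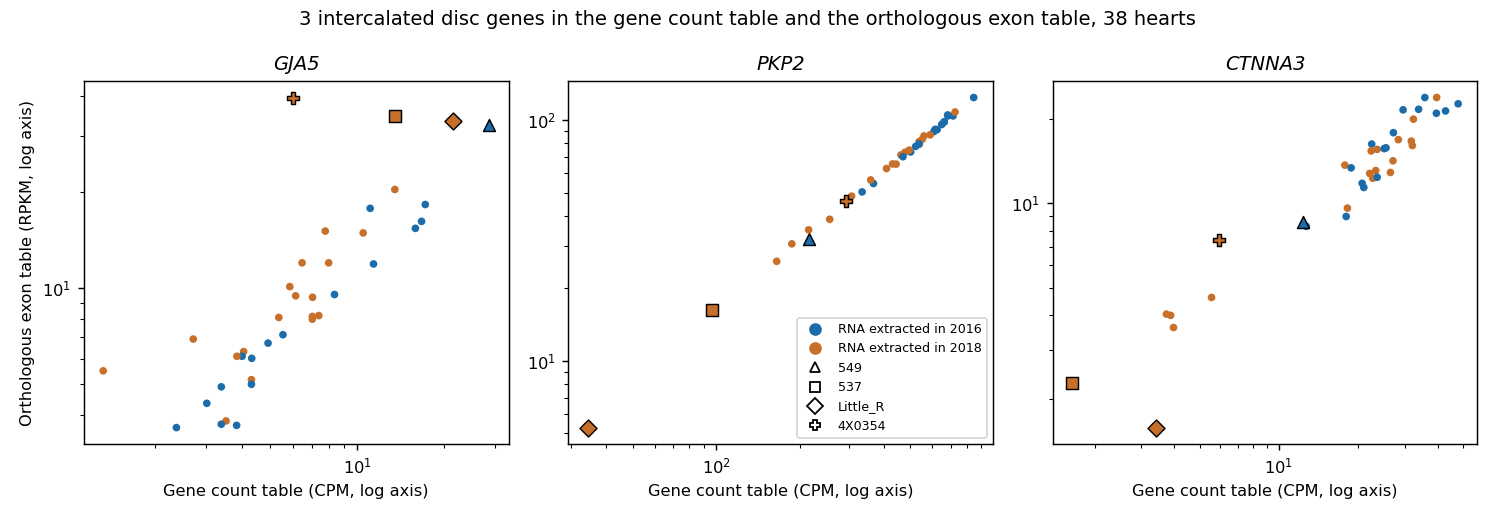
GJA5, PKP2 and CTNNA3 in the gene count table (CPM) against the orthologous exon table (RPKM), both on log axes, in the 38 hearts with 4 hearts marked. PKP2 lies on a line, whereas for GJA5 the heart 4X0354 (rank 20 by CPM, 39.7 RPKM) leaves the trend of the others.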

How the data were processed

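RNA-seq of 38 chimpanzee hearts was analysed. Per the study's methods, poly(A) RNA was read with Illumina TruSeq libraries and aligned with STAR (2.6.1b in the submitters' processing notes) to Pan_tro_3.0. The authors deposited raw counts per annotated gene (the main table), raw counts per gene on orthologous exons made with featureCounts, and a normalized matrix whose values, a score per gene and animal, they made by standardizing log CPM and quantile normalizing (37 animals). The length that the authors give for the orthologous exons, in bases, served for RPKM. Of the columns per sample, 52 matched no sample and were not used, so species were not compared. Extraction year, sex, RIN, age and centre come from the study's sample table.

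CPM (counts-per-million) is the gene count scaled by the orthologous exon total. Contrasts used edgeR 4.0.16 (TMM, filterByExpr, quasi-likelihood test, Benjamini-Hochberg, threshold 0.05) over 38 animals, with sex in the model for year, year for sex, year and sex for RIN, and year and sex for age (34 animals). Intervals are normal 95% intervals. DESeq2 1.42.0 and limma 3.58.1 were alternatives. Dispersion used maximum likelihood and LOESS (degree 1, span 0.75), with R 4.3.3, and correlations used Python 3.11.15 with numpy 2.4.6. The edgeR fit by year, the permutation test and the overdispersion estimate were also run on simulated counts or values. Symbols came from a table pairing 18040 identifiers. P-values rest on the spread between these animals and treat the hearts as independent, although some of the animals are first-degree relatives. The permutation test of pairs had no term for extraction year. CPM carries counting error beside animal differences.

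The members and lists were chosen with earlier results of these data known. Named genes are all members, up to 5 called genes per partner list (smallest p first), the 1 to 3 with the highest median, and the 5 most alike by rho. Genes correlated with all or most of the 6 muscle genes, the cadherins of the DSG2 cluster and the genes given for dispersion were chosen after their values were seen. Some genes that this rule names are not reported here. Leaving out 338, 4X0354, 4X0267 or 549 from the partner and marker lists was likewise decided after seeing the data, as was leaving out 537 and Little_R there.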

Additional observations from a re-analysis of the deposited data

How the results depend on the processing

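No paired analysis was possible because all samples belong to 1 group. By extraction year 0 members were called with 549 left out, in the Yerkes animals only and with the mitochondrial share as a further covariate (chosen after seeing the data), and leaving out each animal gave 0 to 1 (0 without 338 or 549). By sex, RIN and age 0 members were called in every alternative run. Of the 36 pairs, 7 were called in the normalized matrix of the authors. Members with dispersion below 0 numbered 2 with TMM library sizes, LOESS span 0.3, the later year only and 549 left out (chosen after seeing the data), 3 in the earlier year only, and 1 to 2 when leaving out each animal. JUP was the added member, at -0.01 (TMM), -0.15 (span 0.3), -0.57 (later year) and -0.07 (549 left out), with -0.38 to 0.17 over single animals left out, and in the earlier year DSP and DSG2 were at -0.21 and -0.36. Of the log2 differences, those that changed sign were all uncalled. With the mitochondrial share, they were 0.05 for DSP and 0.02 for DSG2 by year, 0.03 for PKP2 and 0.01 for DSC2 by sex, and -0.01 for DSP, -0.04 for PKP2 and -0.04 for DSG2 by RIN. With limma-voom they were -0.09 for DSG2 by sex, and by RIN -0.02 for CDH2, -0.06 for DSP, -0.10 for PKP2, -0.04 for DSG2 and -0.03 for DSC2. Without 549 DSG2 was at -0.0026 by sex, in the later year PKP2 was at -0.01 by RIN, with the exon total as library size PKP2 and JUP were at -0.01 and -0.02 by age, and in the exon counts GJA5 was at 0.27 by year. Leaving out each animal, the RIN slopes ran from -0.02 to 0.04 for GJC1, -0.02 to 0.04 for PKP2, -0.01 to 0.07 for DSG2 and -0.04 to 0.02 for JUP. The causes were not tested. Few reads limit GJC1 and GJA5, and only 3 members could be checked in a second table.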
